A study of Mus musculus with 12 samples.

Results

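The genes described here are 37 genes of protein folding, stress sensing and protein disposal in the endoplasmic reticulum (ER), measured in the embryonic pancreas of β-catenin KO and wildtype mice. They were picked for their roles, with earlier results of these data already known, so the shares of members set beside those of all probe sets below are descriptions. All probe sets of the array whose only gene symbol is one of the 37 were taken, and all 37 were measured, on 85 of the 45037 probe sets tested and as 37 of the 18193 genes with a probe set of a single symbol. By role they are 15 ER chaperones and co-chaperones, 8 disulfide isomerases, 4 genes of stress sensing (the sensors Ern1, Eif2ak3 and Atf6, with Xbp1) and 10 genes of ER-associated degradation. RNA of 12 pancreata, 1 embryo each, was hybridized to 1 Affymetrix MOE430 2.0 array per pancreas. At E14.5 there were 4 KO pancreata (KO_540C, KO_540G, KO_615A and KO_615B) and 2 wildtype pancreata (WT_522B and WT_522C), and at E16.5 there were again 4 KO pancreata (KO_591D, KO_541J, KO_541L and KO_591C) and 2 wildtype pancreata (WT_628G and WT_622A). The KO embryos carried a Pdx1-cre transgene, and both alleles of their β-catenin gene (Ctnnb1) had loxP sites in introns 2 and 6. Embryos of both genotypes came from matings of mice that were Pdx1Cre/+ and beta-cateninflox/+. The Pdx1 promoter drives Cre in the pancreatic epithelium, so mesenchyme, vessels and blood cells of a KO pancreas keep the gene, and the study took Cre expression to be probably mosaic. For wildtype embryos the labels give no more than that name, so that Cre or a single floxed allele in them is not known.

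Secreted and membrane proteins enter the ER unfolded. The chaperone BiP (Hspa5) binds them with the help of J-domain co-chaperones, calnexin (Canx) and calreticulin (Calr) hold those that carry sugar chains, and disulfide isomerases join their cysteines. Chains that fail to fold are pulled back to the cytosol and degraded. When unfolded chains build up, the sensors IRE1 (Ern1), PERK (Eif2ak3) and ATF6 (Atf6) slow protein synthesis and turn on chaperone and degradation genes, IRE1 through splicing of the Xbp1 transcript. This unfolded protein response is well known in pancreatic acinar cells, which make digestive enzymes in large amounts: mice without PERK lose acinar cells after birth, and XBP1 is needed to build the secretory machinery of these cells.

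Every value is a ratio to the average of both wildtype arrays of that day, so that 1 stands for the wildtype mean. Such ratios hold neither how abundant a transcript was nor how it changed between the days, and the tissue label could not be checked against the abundance of its markers. In every list below KO values follow the order KO_540C, KO_540G, KO_615A and KO_615B at E14.5 and KO_591D, KO_541J, KO_541L and KO_591C at E16.5, and wildtype values follow the order WT_522B and WT_522C, then WT_628G and WT_622A. The log2 ratios of KO and wildtype were set against each other in limma, p values were adjusted for the 45037 probe sets tested, with 0.05 as the limit, fold changes are given ± the standard error (SE) of the fit, and a gene is represented by 1 probe set chosen by its name alone unless another is named. The number of arrays, 2 wildtype arrays a day above all, limits the precision. Names of pancreata share a number within a group (KO_540C with KO_540G, KO_615A with KO_615B, WT_522B with WT_522C, KO_541J with KO_541L and KO_591D with KO_591C), and the labels do not tell what the number stands for or whether embryos came from separate litters. If it is a litter, the 4 KO pancreata of a day come from 2 litters, and the p values measure the spread between these embryos only. With the number as a random block 13 members passed at E16.5, against 12 without it. That fit used 1 correlation for all probe sets, -0.0876, and no number is shared between KO and wildtype. It therefore cannot tell whether litters bear on the calls. For Ctnnb1, the gene targeted, 3 probe sets read 0.845 to 0.956, 1.11 to 1.31 and 0.701 to 0.955 in the KO at E14.5 and 0.862 to 1.04, 0.662 to 0.709 and 0.620 to 0.996 in the KO at E16.5. None passed the limit, and where they lie relative to the deleted exons is not known, so they do not check the labels.

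At E16.5 the ER genes picked as members were low in KO pancreata. Among the 4 roles, the 10 members of ER-associated degradation had the lowest median log2 fold change, -0.955. This does not extend to the whole pathway, since 23 further genes of ER-associated degradation had a median of -0.0536 and 0 passed the limit. Of the 37 members 35 had a lower mean in KO than in wildtype (94.6%, against 43.9% of all probe sets), and the median log2 fold change was -0.678, against 0.0267 over all probe sets. The fall passed the limit for 12 members (32.4%), against 1.82% of all probe sets called lower, and no member rose, against 0.802% called higher (2.62% in either direction). These were Herpud1, Edem1, Edem2, Sel1l, Os9, Derl1 and Derl3 of ER-associated degradation, Sdf2l1 and Ppib among the chaperones, Pdia2 and Txndc5 among the isomerases, and the sensor Eif2ak3. At an unadjusted p under 0.05 there were 26 lower (70.3%, against 8.16% of all probe sets) and 0 higher (against 8.48%). In 26 members all 4 KO pancreata lay below both wildtype pancreata, against 11.1% of all probe sets, and in 0 all 4 lay above, against 14.5%. Over all 85 probe sets of the members 78 were lower and 24 passed the limit (28.2%), and 19 of the 37 genes had at least 1 such probe set. These arrays measure whole pancreata, in which fewer cells of a type and less RNA per cell cannot be told apart. Markers of acinar cells were low on the same arrays, 20 of 20 measured and 13 of them past the limit, with a median log2 fold change of -2.5, and their part in the values of the ER genes was not tested.

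At E14.5 the same genes lay on both sides of wildtype. The median log2 fold change was -0.0142, against 0.0193 over all probe sets, 20 members were lower (54.1%, against 44.6%) and 17 higher, and after quantile normalization the median was 0.00944. No member passed the limit with limma (0.00888% of all probe sets were called lower and 0.00222% higher, 0.0111% in all), the smallest adjusted p being 0.541 for Os9. At an unadjusted limma p under 0.05, Dnajc10 was lower and Os9 higher, against 4.52% and 2.34% of all probe sets. The methods' t-test without correction gave Os9, Pdia2, Derl3 and Sdf2l1, all higher, and the share of all probe sets it called was not counted. In these 4 genes (10.8%, against 8.17% of all probe sets) all 4 KO pancreata lay above both wildtype pancreata at E14.5. They were also below both wildtype pancreata at E16.5, a double pattern seen in 0.695% of all probe sets. In Dnajb11 and Dnajc10 (5.41%, against 8.06%) all 4 KO pancreata lay below both wildtype pancreata at E14.5.

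**Figure D1:**
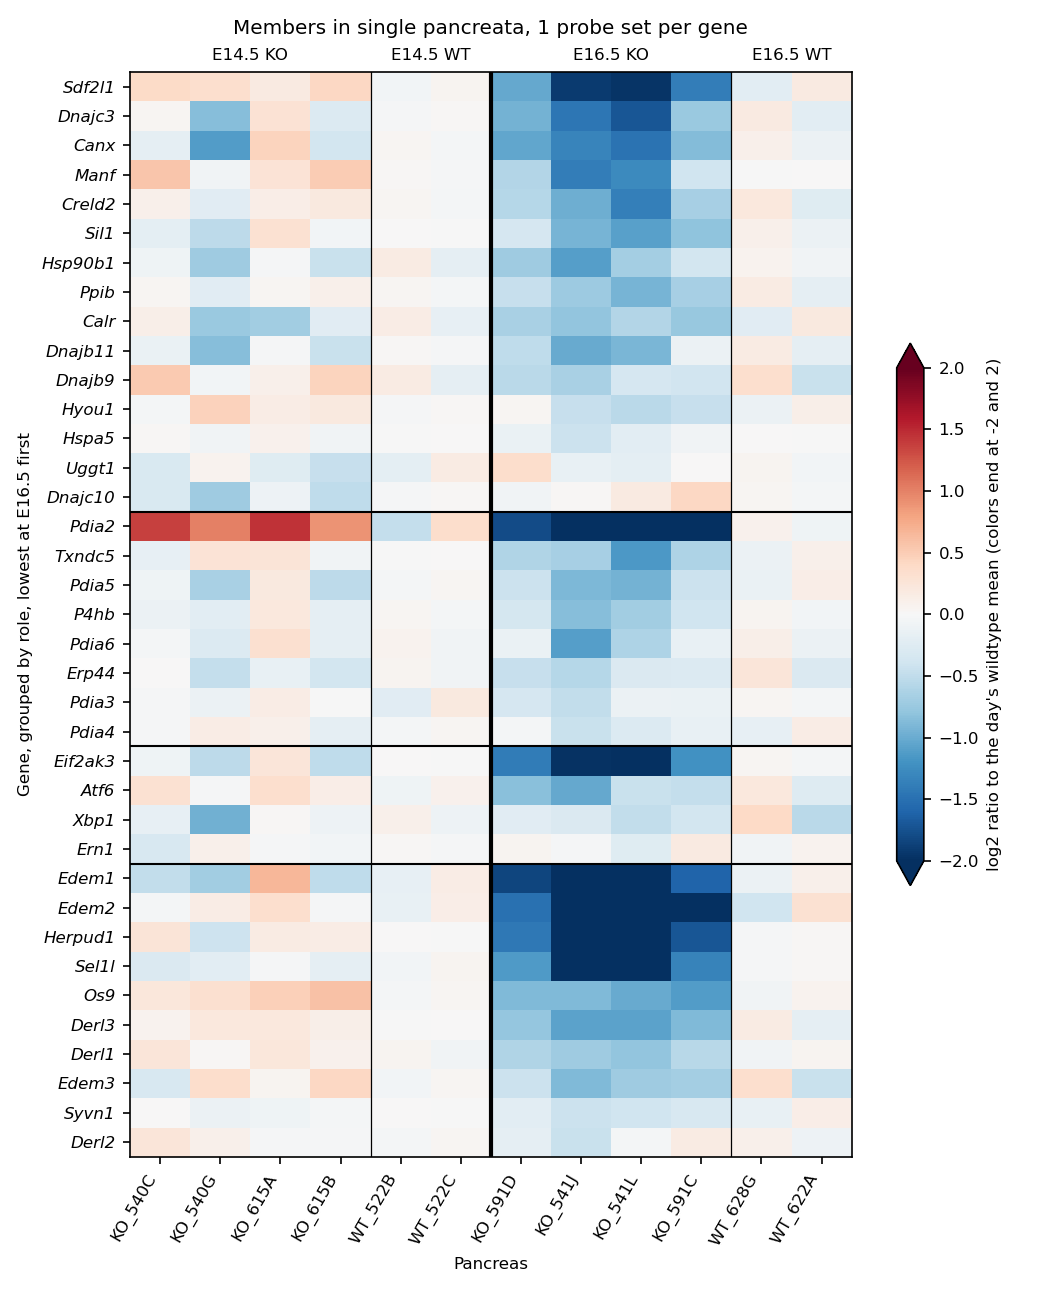
Log2 ratio to the wildtype mean of the same day for each of the 37 members (rows, grouped by role) in each of the 12 pancreata (columns, KO left of wildtype within a day), with blue below and red above wildtype and colors ending at -2 and 2. At E16.5 the KO columns are blue for all but a few members and darkest in KO_541J and KO_541L, and at E14.5 they hold both colors.

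The count at E16.5 depended on single arrays, the variance model, the normalization and the test. Without WT_622A 5 members passed (Derl3, Eif2ak3, Herpud1, Os9 and Sel1l), and without KO_591D 17 did. With a trended and robust variance 4 passed (Derl3, Edem2, Os9 and Sdf2l1), after quantile normalization 4 (Eif2ak3, Herpud1, Sdf2l1 and Sel1l), and with E16.5 fitted on its own 6 arrays 1 (Os9). The methods' t-test gave 0 members after Benjamini-Hochberg adjustment and 20 without correction, and the share of all probe sets called without correction was not counted. The median log2 fold change stayed between -0.801 and -0.489 in all alternatives run. Herpud1, Sel1l, Eif2ak3, Derl3 and Os9 passed whichever of the 12 arrays was left out, and Edem2, Sdf2l1 and Derl1 did so except without WT_622A (limma adjusted p = 0.0508, 0.0598 and 0.0724). The other 4 calls rested on more arrays. That of Ppib held without any of the E14.5 KO arrays or KO_591D and ended without each of the other 7, that of Txndc5 held without KO_540C, KO_540G, KO_615A or KO_591D, that of Edem1 held without KO_540G, KO_615A, KO_591D or KO_591C, and that of Pdia2 held without KO_591D, KO_541L or KO_591C and ended without each of the other 9, with adjusted p values of up to 0.198, 0.238, 0.184 and 0.173.

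**Figure D2:**
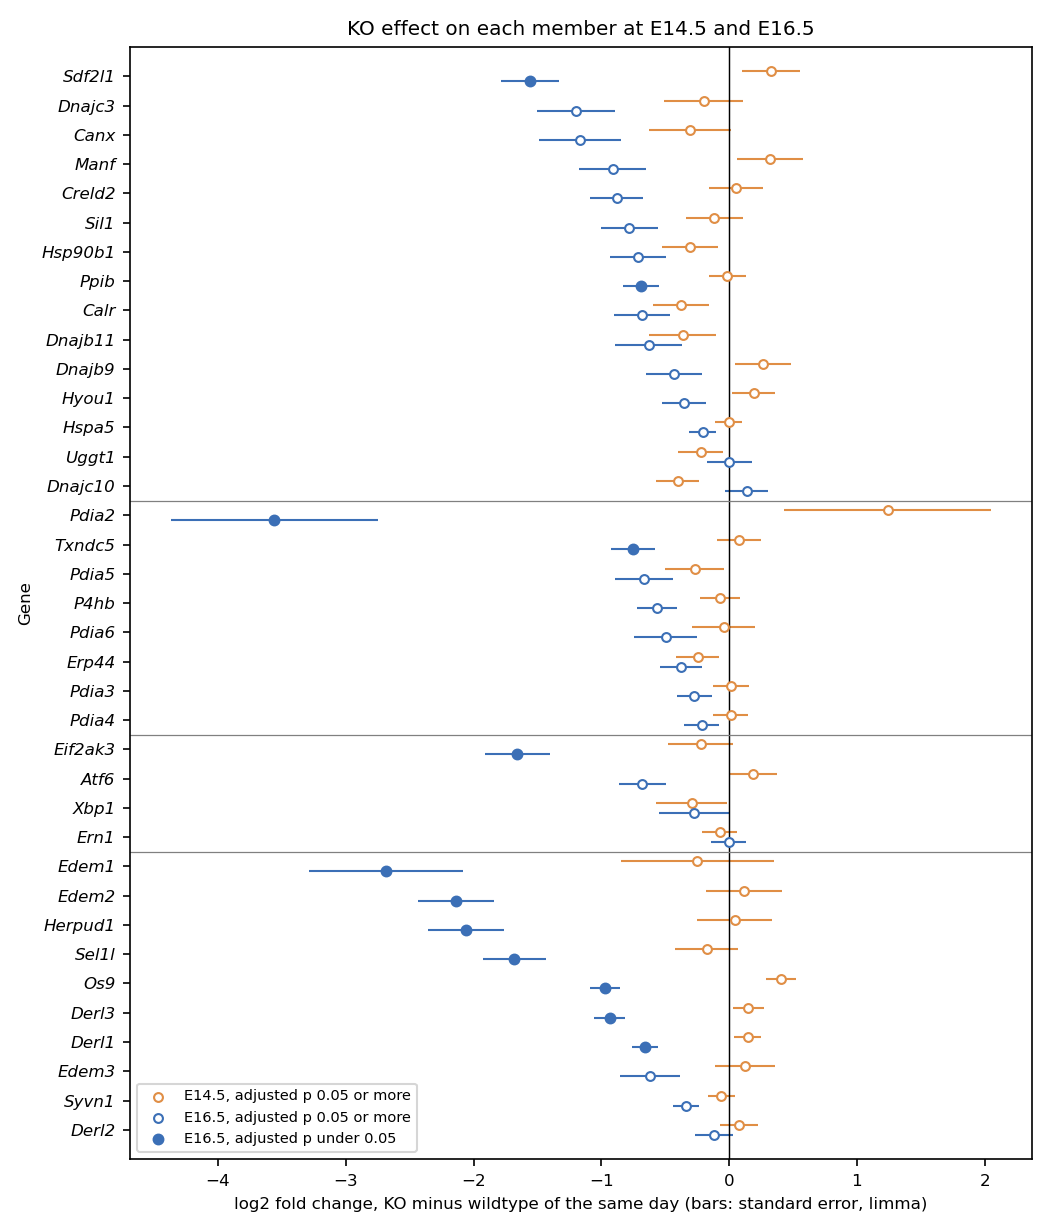
Log2 fold change (KO minus wildtype of the same day) of each member at E14.5 (orange) and E16.5 (blue), with limma standard errors as bars and filled symbols where the adjusted p was under 0.05. All filled symbols are at E16.5 and below 0, and 7 of the 12 belong to ER-associated degradation, the lowest block.

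Many genes of the unfolded protein response carry an ER stress element in their promoter, to which ATF6 and XBP1 bind beside the factor NF-Y. Promoters were searched on both strands from 250 bases before to 50 bases after the start, in the RefSeq windows of GRCm38.p6, which hold 32 of the 37 members. The element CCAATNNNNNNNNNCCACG was found in 9 of these 32 genes (28.1%), which were Calr, Canx, Creld2, Derl3, Dnajc3, Hsp90b1, Hspa5, Pdia6 and Syvn1, against 0.137% of the 27025 genes with a window. Its second form, ATTGGNCCACG, was found in Herpud1 and Dnajb11, against 0.0444% of genes. No window in the whole table held both forms. The UPR element TGACGTG stood in Hspa5 and Txndc5 (2.22% of all genes) and the core of the amino acid response element, TTGCATCA, to which ATF4 binds, in Herpud1 (1.03% of all genes). Either ER stress element stood in 2 of the 11 members past the limit at E16.5 that have a window, and in 9 of the 21 members not past it. This split rests on the chosen probe sets. Calr, Dnajc3 and Syvn1, which hold the element, passed on another probe set, as did Edem3 and Uggt1, which hold neither form. The median log2 fold change at E16.5 was -0.711 in the 11 members with either element and -0.621 in those without. A match is a string of letters, not a measured binding site. The 4 windows below show the members past the limit that hold either ER stress element, Herpud1 and Derl3. Beside them stand Hspa5 and Dnajc3, which hold one and did not pass the limit on the chosen probe set. The windows are written 5′ to 3′ on the strand of the gene, with the fixed bases of all elements searched in capitals. In Herpud1 (chr8:94386179-94386478, + strand) the capitals mark first the amino acid response core and then the second ER stress element, 42 bases upstream of the start. In Derl3 (chr10:75893148-75893447, + strand) they mark the ER stress element on the opposite strand, in Hspa5 (chr2:34771840-34772139, + strand) the UPR element and then the ER stress element, and in Dnajc3 (chr14:118937682-118937981, + strand) the ER stress element.
Herpud1: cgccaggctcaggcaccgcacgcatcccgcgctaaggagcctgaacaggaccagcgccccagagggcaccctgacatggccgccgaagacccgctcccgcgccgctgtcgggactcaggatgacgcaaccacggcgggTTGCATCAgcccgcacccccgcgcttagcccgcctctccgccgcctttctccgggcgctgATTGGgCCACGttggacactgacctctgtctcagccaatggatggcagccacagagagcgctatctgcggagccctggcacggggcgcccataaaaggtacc
Derl3: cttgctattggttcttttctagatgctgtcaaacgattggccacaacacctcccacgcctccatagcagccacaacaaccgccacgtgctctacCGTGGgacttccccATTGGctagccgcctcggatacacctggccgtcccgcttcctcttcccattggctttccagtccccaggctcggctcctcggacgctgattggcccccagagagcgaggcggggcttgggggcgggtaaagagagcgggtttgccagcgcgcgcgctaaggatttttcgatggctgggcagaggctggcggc
Hspa5: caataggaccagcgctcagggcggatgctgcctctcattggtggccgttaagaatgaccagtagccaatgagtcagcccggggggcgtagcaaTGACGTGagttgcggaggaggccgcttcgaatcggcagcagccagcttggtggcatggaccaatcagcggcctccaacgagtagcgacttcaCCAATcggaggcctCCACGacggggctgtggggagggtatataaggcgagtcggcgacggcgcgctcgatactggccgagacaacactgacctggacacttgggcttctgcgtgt
Dnajc3: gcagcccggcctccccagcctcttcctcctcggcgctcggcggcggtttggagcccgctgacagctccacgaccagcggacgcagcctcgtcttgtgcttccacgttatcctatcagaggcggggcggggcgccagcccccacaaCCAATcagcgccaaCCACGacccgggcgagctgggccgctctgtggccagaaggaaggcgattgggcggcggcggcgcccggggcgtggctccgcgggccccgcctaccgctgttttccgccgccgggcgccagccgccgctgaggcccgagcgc

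Among the 15 ER chaperones and co-chaperones 13 were lower in the KO at E16.5, where their median was -0.689 in log2 fold change, and 2 passed the limit on the chosen probe set. Sdf2l1, an ER-resident protein that works in a complex with the co-chaperone Dnajb11, was the lowest. It read 0.493, 0.267, 0.256 and 0.382 in KO pancreata at E16.5, against 0.867 and 1.13 in wildtype (log2 fold change -1.56 ± 0.23, limma adjusted p = 0.00620). At E14.5 it read 1.31, 1.26, 1.13 and 1.34 in KO, against 0.961 and 1.04 in wildtype (log2 fold change 0.33 ± 0.23, limma adjusted p = 0.861). The 4 KO pancreata were therefore all above wildtype on the earlier day and all below it on the later, with KO_541J and KO_541L lowest. Ppib, which encodes the proline isomerase cyclophilin B, read 0.726, 0.602, 0.525 and 0.630 in KO at E16.5, against 1.11 and 0.885 in wildtype (log2 fold change -0.69 ± 0.14, limma adjusted p = 0.0301). Its other probe set passed as well, at 0.704, 0.653, 0.501 and 0.566 in KO and 1.11 and 0.888 in wildtype (limma adjusted p = 0.0442). At E14.5 the chosen Ppib probe set read 1.02, 0.857, 1.03 and 1.07 in KO and 1.02 and 0.975 in wildtype, with overlapping groups.

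Hspa5, which encodes BiP itself, gave 3 different answers. The chosen probe set, 1416064_a_at, read 0.915, 0.746, 0.867 and 0.955 in KO at E16.5, against 1.0 and 0.998 in wildtype (log2 fold change -0.21 ± 0.11, limma adjusted p = 0.372). A second, 1427464_s_at, read 0.538, 0.380, 0.465 and 0.665 in KO, against 0.978 and 1.02 in wildtype (log2 fold change -1.0 ± 0.29, limma adjusted p = 0.0979). The third, 1447824_x_at, lay above wildtype in all 4 KO pancreata, at 1.22, 1.15, 1.10 and 1.17, against 1.07 and 0.928 in wildtype (log2 fold change 0.22 ± 0.11, limma adjusted p = 0.348). None passed the limit, and their log2 fold changes at E16.5 span 1.21. By the naming of the array, probe sets ending in _s_at or _x_at can also bind other transcripts. At E14.5 the chosen probe set read 1.02, 0.954, 1.07 and 0.957 in KO and 0.999 and 1.0 in wildtype.

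Hyou1 and Dnajc3, partners of BiP, passed the limit on a probe set other than the chosen one. Hyou1, a large chaperone that recharges BiP with nucleotide, read 0.605, 0.435, 0.414 and 0.485 in KO at E16.5 on 1423291_s_at, against 1.0 and 1.0 in wildtype (log2 fold change -1.06 ± 0.15, limma adjusted p = 0.00597). On the same probe set it read 1.18, 1.31, 1.15 and 1.48 in KO at E14.5, against 0.927 and 1.07 in wildtype, so the KO pancreata lay above both wildtype pancreata at E14.5 and below both at E16.5. The chosen Hyou1 probe set read 1.03, 0.727, 0.690 and 0.724 in KO and 0.919 and 1.08 in wildtype at E16.5, with KO_591D inside the wildtype range (limma adjusted p = 0.336). Dnajc3, a co-chaperone that also restrains PERK, read 0.520, 0.367, 0.304 and 0.596 in KO on the chosen probe set, against 1.14 and 0.864 in wildtype (log2 fold change -1.20 ± 0.31, limma adjusted p = 0.0640). All 5 of its probe sets were below wildtype in each KO pancreas at E16.5, and 1 of them, 1419163_s_at, passed at 0.562, 0.333, 0.340 and 0.641 in KO, against 1.12 and 0.879 in wildtype (limma adjusted p = 0.0348). At E14.5 the chosen Dnajc3 probe set spanned 0.556 to 1.22 in KO, with KO_540G lowest.

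The lectin chaperones and their glucosyltransferase were low in the KO at E16.5 on most probe sets. Calr read 0.637, 0.577, 0.667 and 0.591 in KO, against 0.850 and 1.15 in wildtype (log2 fold change -0.68 ± 0.22, limma adjusted p = 0.135). Its probe set 1433806_x_at passed, at 0.508, 0.450, 0.533 and 0.495 in KO, against 0.816 and 1.18 in wildtype (limma adjusted p = 0.0436). All 4 KO pancreata were below both wildtype pancreata on each of the 3 Calr probe sets at E16.5. At E14.5 Calr read 1.08, 0.601, 0.616 and 0.859 in KO and 1.11 and 0.893 in wildtype (log2 fold change -0.38 ± 0.22, limma adjusted p = 0.815), with KO_540C inside the wildtype range and the other 3 KO pancreata below it. Canx spanned 0.359 to 0.550 in KO at E16.5, against 0.923 to 1.08 in wildtype (log2 fold change -1.17 ± 0.32, limma adjusted p = 0.0785), while its probe set 1428935_at spanned 0.832 to 0.908 in KO. Uggt1, the enzyme that tags unfolded glycoproteins for another round of folding, read 1.28, 0.899, 0.871 and 1.0 in KO and 1.04 and 0.963 in wildtype on the chosen probe set, with overlapping groups (log2 fold change 0.002 ± 0.18, limma adjusted p = 0.999). On 1455839_at it read 0.642, 0.588, 0.654 and 0.716 in KO, against 1.04 and 0.955 in wildtype, and passed the limit (limma adjusted p = 0.0110).

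The remaining chaperones and co-chaperones did not pass on any probe set. Dnajc10, an ER reductase with a J domain, had, on 2 of its 3 probe sets, a lower KO mean than wildtype at E14.5 and a higher one at E16.5. It read 0.812, 0.610, 0.936 and 0.704 in KO at E14.5, against 0.982 and 1.02 in wildtype (log2 fold change -0.40 ± 0.17, limma adjusted p = 0.688). At E16.5 it read 0.951, 1.02, 1.13 and 1.34 in KO, against 1.03 and 0.974 in wildtype (log2 fold change 0.14). Dnajb11, which brings unfolded chains to BiP, read 0.916, 0.554, 0.985 and 0.733 in KO and 1.01 and 0.987 in wildtype at E14.5, and 0.700, 0.497, 0.529 and 0.923 in KO and 1.12 and 0.881 in wildtype at E16.5 (log2 fold change -0.63 ± 0.26, limma adjusted p = 0.248). KO_591C overlapped wildtype there. Manf, a secreted BiP cofactor, spanned 0.384 to 0.756 in KO at E16.5, against 0.990 to 1.01 in wildtype (log2 fold change -0.91 ± 0.26, limma adjusted p = 0.0927), and 0.948 to 1.48 in KO at E14.5. Creld2, an ER stress-inducible protein, missed the limit by little at E16.5, with 0.387 to 0.675 in KO and 0.848 to 1.15 in wildtype (log2 fold change -0.88 ± 0.21, limma adjusted p = 0.0501). Hsp90b1, the ER paralog of the cytosolic chaperone HSP90, Sil1, a nucleotide exchange factor of BiP, and Dnajb9, a co-chaperone that acts on IRE1, were at -0.71, -0.78 and -0.43 in log2 fold change on that day (limma adjusted p = 0.118, 0.0916 and 0.357).

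The 8 disulfide isomerases were all lower in the KO at E16.5 (median log2 fold change -0.532), and 2 passed. Pdia2, the isomerase found chiefly in the pancreas, had the widest swing of all members. In KO pancreata it read 2.59, 2.02, 2.73 and 1.86 at E14.5, against 0.719 and 1.28 in wildtype (log2 fold change 1.24 ± 0.81, limma adjusted p = 0.847). At E16.5 it read 0.290, 0.0556, 0.0183 and 0.174 in KO, against 1.06 and 0.938 in wildtype (log2 fold change -3.56 ± 0.81, limma adjusted p = 0.0431). All 4 KO pancreata were above wildtype on the first day and far below it on the second, KO_541L lowest. The difference between the days did not pass the limit (log2 fold change -4.80 ± 1.14, limma adjusted p = 0.131), and neither did the effect at E14.5, where the wildtype pair was itself far apart. Txndc5, an isomerase with several thioredoxin domains, read 0.658, 0.632, 0.453 and 0.654 in KO at E16.5, against 0.926 and 1.07 in wildtype (log2 fold change -0.75 ± 0.17, limma adjusted p = 0.0444), with KO_541L below the other 3. Its other probe set spanned 0.716 to 0.895 in KO and 0.792 to 1.21 in wildtype, and at E14.5 the chosen one spanned 0.897 to 1.21 in KO.

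On the chosen probe sets the broadly expressed isomerases moved less. P4hb, the prototype of the family, spanned 0.557 to 0.788 in KO at E16.5, against 0.964 to 1.04 in wildtype (log2 fold change -0.57 ± 0.16, limma adjusted p = 0.0820), and Pdia5 spanned 0.521 to 0.746, against 0.909 to 1.09 (log2 fold change -0.67 ± 0.23, limma adjusted p = 0.160). For Pdia6, Erp44, which holds oxidases in the secretory pathway, Pdia3, the partner of calnexin and calreticulin, and Pdia4 the log2 fold changes at E16.5 were -0.50, -0.38, -0.27 and -0.22 (limma adjusted p = 0.350, 0.283, 0.373 and 0.499). Second probe sets of Pdia3 and Pdia6 had log2 fold changes above 0, of 0.25 and 0.062. At E14.5 these 6 isomerases had log2 fold changes between -0.27 and 0.015 on the chosen probe sets.

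Of the genes of stress sensing, Eif2ak3 passed the limit and the transcripts of the IRE1 and XBP1 arm did not. Eif2ak3, the gene of PERK, read 0.381, 0.254, 0.242 and 0.430 in KO at E16.5, against 1.03 and 0.973 in wildtype (log2 fold change -1.66 ± 0.26, limma adjusted p = 0.00831). At E14.5 it read 0.942, 0.692, 1.18 and 0.702 in KO and 1.01 and 0.993 in wildtype, KO_615A on the far side of wildtype from KO_540G and KO_615B. The other 2 Eif2ak3 probe sets did not pass at E16.5, where they spanned 0.900 to 1.01 and 0.732 to 0.922 in KO, against 0.968 to 1.03 and 0.988 to 1.01 in wildtype. Atf6 read 0.561, 0.491, 0.736 and 0.715 in KO at E16.5 on the chosen probe set, against 1.16 and 0.840 in wildtype (log2 fold change -0.68 ± 0.18, limma adjusted p = 0.0783). Its other 2 probe sets passed, 1453288_at with 0.669, 0.657, 0.643 and 0.715 in KO and 1.10 and 0.895 in wildtype (limma adjusted p = 0.0466), and 1456021_at with 0.631, 0.598, 0.639 and 0.703 in KO and 1.12 and 0.883 in wildtype (limma adjusted p = 0.0128). The 3 Atf6 probe sets thus lay within 0.109 of each other in log2 fold change.

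Ern1 read 1.04, 0.989, 0.849 and 1.13 in KO at E16.5, against 0.954 and 1.05 in wildtype (log2 fold change -0.0038 ± 0.13, limma adjusted p = 0.996), and 0.801, 1.08, 0.979 and 0.961 in KO and 1.01 and 0.986 in wildtype at E14.5. Over its 5 probe sets the log2 fold change at E16.5 ranged from -0.56 to -0.0038, and none passed. Xbp1 read 0.855, 0.815, 0.711 and 0.772 in KO at E16.5, against 1.31 and 0.686 in wildtype, so that the KO values lay between the 2 wildtype values (log2 fold change -0.27 ± 0.28, limma adjusted p = 0.719). This wildtype pair was the farthest apart of all members at E16.5, by 0.628. On 1437223_s_at the Xbp1 wildtype values were 0.999 and 1.0, and the KO read 0.906, 0.831, 0.703 and 0.909, all below, without passing the limit (log2 fold change -0.26, limma adjusted p = 0.411). Larger changes stood on the other Xbp1 probe sets, 1420886_a_at with 0.714, 0.532, 0.476 and 0.771 in KO and 0.700 and 1.30 in wildtype (log2 fold change -0.64, limma adjusted p = 0.246) and 1420011_s_at with 0.728, 0.679, 0.539 and 0.793 in KO and 0.906 and 1.09 in wildtype (log2 fold change -0.55, limma adjusted p = 0.463), all 4 KO pancreata lying below wildtype on the second of these only. Over its 4 probe sets Xbp1 thus ranged from -0.64 to -0.26 in log2 fold change, and none passed. At E14.5 the chosen Xbp1 probe set read 0.897, 0.515, 1.01 and 0.934 in KO and 1.07 and 0.932 in wildtype. Spliced and unspliced Xbp1 transcripts were not measured separately, nor was any protein or its phosphorylation.

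ER-associated degradation held 7 of the 12 members past the limit at E16.5. All 10 of its genes were lower in KO, with a median log2 fold change of -0.955, and all 24 of its probe sets were lower, 12 of them past the limit. At E14.5 the median was 0.0957, with 7 of the 10 genes higher in KO. The members act in sequence. EDEM proteins trim mannose from the sugar chains of misfolded proteins, the lectin OS9 reads the trimmed chain, SEL1L hands the protein to the ubiquitin ligase SYVN1, and HERPUD1 and the derlins belong to the membrane complex through which it leaves the ER.

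The mannose trimming genes Edem1 and Edem2 had the lowest KO values of this group. Edem1 read 0.281, 0.109, 0.0572 and 0.330 in KO at E16.5, against 0.925 and 1.07 in wildtype (log2 fold change -2.69 ± 0.60, limma adjusted p = 0.0408). Its second probe set passed with a smaller standard error, at 0.402, 0.206, 0.148 and 0.313 in KO, against 1.03 and 0.968 in wildtype (log2 fold change -2.01 ± 0.34, limma adjusted p = 0.0134). KO_541L was lowest and KO_541J next on both. At E14.5 the chosen Edem1 probe set read 0.712, 0.615, 1.59 and 0.704 in KO and 0.891 and 1.11 in wildtype, KO_615A standing apart above the other 3. Edem2 read 0.357, 0.181, 0.148 and 0.246 in KO at E16.5, against 0.759 and 1.24 in wildtype (log2 fold change -2.14 ± 0.30, limma adjusted p = 0.00496), and 0.978, 1.11, 1.26 and 0.987 in KO and 0.899 and 1.10 in wildtype at E14.5. A second Edem2 probe set, 1444335_at, spanned 0.889 to 0.932 in KO and 0.800 to 1.20 in wildtype at E16.5, 2.03 away in log2 fold change. Edem3 read 0.746, 0.541, 0.612 and 0.623 in KO, against 1.27 and 0.732 in wildtype (limma adjusted p = 0.198), and passed on 1460401_at, with 0.656, 0.427, 0.454 and 0.646 in KO and 1.16 and 0.839 in wildtype (limma adjusted p = 0.0469).

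Herpud1 was low on both of its probe sets at E16.5. On the chosen one it read 0.370, 0.178, 0.166 and 0.304 in KO, against 0.981 and 1.02 in wildtype (log2 fold change -2.06 ± 0.29, limma adjusted p = 0.00543). On the other it read 0.541, 0.447, 0.325 and 0.523 in KO, against 1.05 and 0.946 in wildtype (log2 fold change -1.15 ± 0.18, limma adjusted p = 0.00957). At E14.5 the chosen probe set read 1.20, 0.749, 1.12 and 1.11 in KO and 1.0 and 0.998 in wildtype, KO_540G alone lying below wildtype. Sel1l read 0.455, 0.236, 0.223 and 0.396 in KO at E16.5, against 0.983 and 1.02 in wildtype (log2 fold change -1.68 ± 0.25, limma adjusted p = 0.00620), and 0.817, 0.863, 0.983 and 0.880 in KO and 0.960 and 1.04 in wildtype at E14.5. A second Sel1l probe set, 1430692_a_at, passed, at 0.505, 0.300, 0.290 and 0.481 in KO, against 0.828 and 1.17 in wildtype (limma adjusted p = 0.0200). Over its 5 probe sets the log2 fold change ran from -1.68 to -0.11. Syvn1 read 0.860, 0.742, 0.758 and 0.801 in KO, against 0.905 and 1.09 in wildtype, on the chosen probe set (log2 fold change -0.34 ± 0.10, limma adjusted p = 0.112), and passed on 1443609_s_at, at 0.440, 0.423, 0.415 and 0.514 in KO, against 0.883 and 1.12 in wildtype (limma adjusted p = 0.0235).

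Os9 had the smallest adjusted p of all members at E16.5. It read 0.540, 0.543, 0.496 and 0.460 in KO at E16.5, against 0.952 and 1.05 in wildtype (log2 fold change -0.97 ± 0.12, limma adjusted p = 0.00215), with the 4 KO pancreata close together. At E14.5 it read 1.18, 1.25, 1.39 and 1.5 in KO, against 0.973 and 1.03 in wildtype (log2 fold change 0.40 ± 0.12, limma adjusted p = 0.541), all 4 above. Its second probe set, 1426975_at, showed neither: it spanned 0.934 to 1.01 in KO and 0.865 to 1.14 in wildtype at E16.5, and 0.977 to 1.18 in KO and 0.977 to 1.02 in wildtype at E14.5. Derl3, the derlin best known from secretory tissues, read 0.588, 0.474, 0.477 and 0.545 in KO at E16.5, against 1.12 and 0.880 in wildtype (log2 fold change -0.94 ± 0.12, limma adjusted p = 0.00351), and 1.05, 1.15, 1.16 and 1.08 in KO and 0.998 and 1.0 in wildtype at E14.5. Derl1 read 0.660, 0.613, 0.581 and 0.680 in KO at E16.5, against 0.957 and 1.04 in wildtype (log2 fold change -0.66 ± 0.10, limma adjusted p = 0.00926), and 1.18, 1.02, 1.18 and 1.06 in KO and 1.04 and 0.956 in wildtype at E14.5. On the other 3 Derl1 probe sets the log2 fold change at E16.5 was -0.46, -0.088 and -0.15, and none passed. Derl2 spanned 0.737 to 1.13 in KO and 0.928 to 1.07 in wildtype at E16.5 on the chosen probe set (log2 fold change -0.12 ± 0.15, limma adjusted p = 0.790). On 1448438_at it spanned 0.511 to 0.739 in KO and 0.900 to 1.10 in wildtype, without passing (log2 fold change -0.78 ± 0.23, limma adjusted p = 0.0998).

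**Figure D3:**
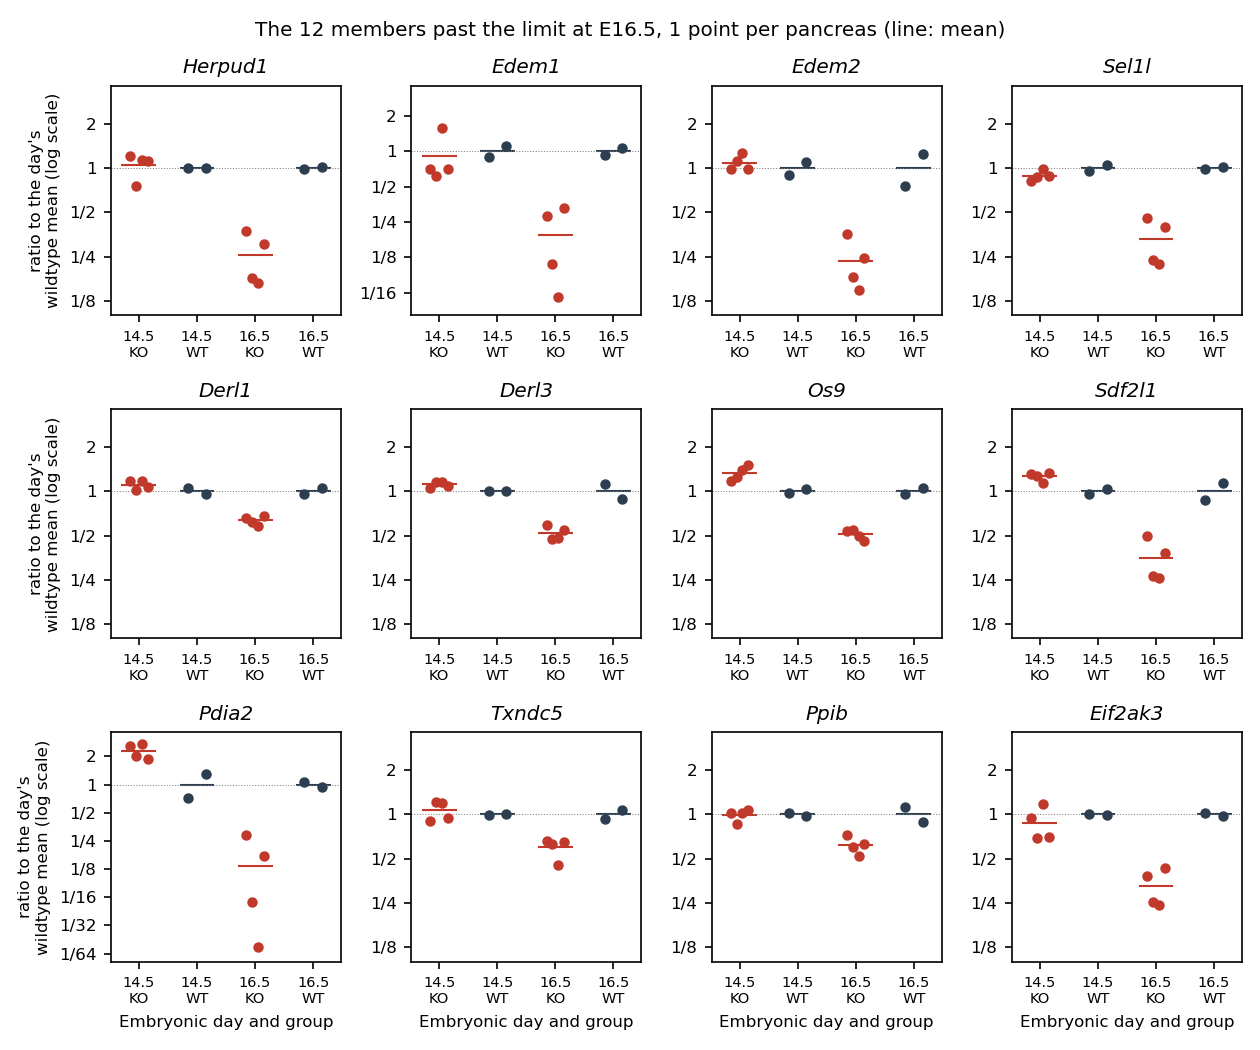
Ratio to the wildtype mean of the same day (log scale, with the scale of each panel set by its gene) for the 12 members past the limit at E16.5, 1 point per pancreas, KO in red left of wildtype in dark blue, lines at the group means. At E16.5 all 4 KO points lie below both wildtype points in each panel, and in Os9, Derl3, Sdf2l1 and Pdia2 all 4 KO points lie above both wildtype points at E14.5.

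Probe sets of a gene disagreed in direction for some members and in size for others. Of the 27 members with more than 1 probe set, Hspa5, Pdia3, Pdia6 and Uggt1 had log2 fold changes on both sides of 0 at E16.5, and Edem2, Eif2ak3, Hspa5 and Sel1l had probe sets over 1 apart. Of the 12 members past the limit 9 have several probe sets, and in 5 of these, Derl1, Edem2, Eif2ak3, Os9 and Txndc5, only the chosen one passed, the log2 fold changes of the others lying between -0.46 (Derl1) and -0.043 (Os9). Which transcript forms each probe set reads was not examined.

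**Figure D4:**
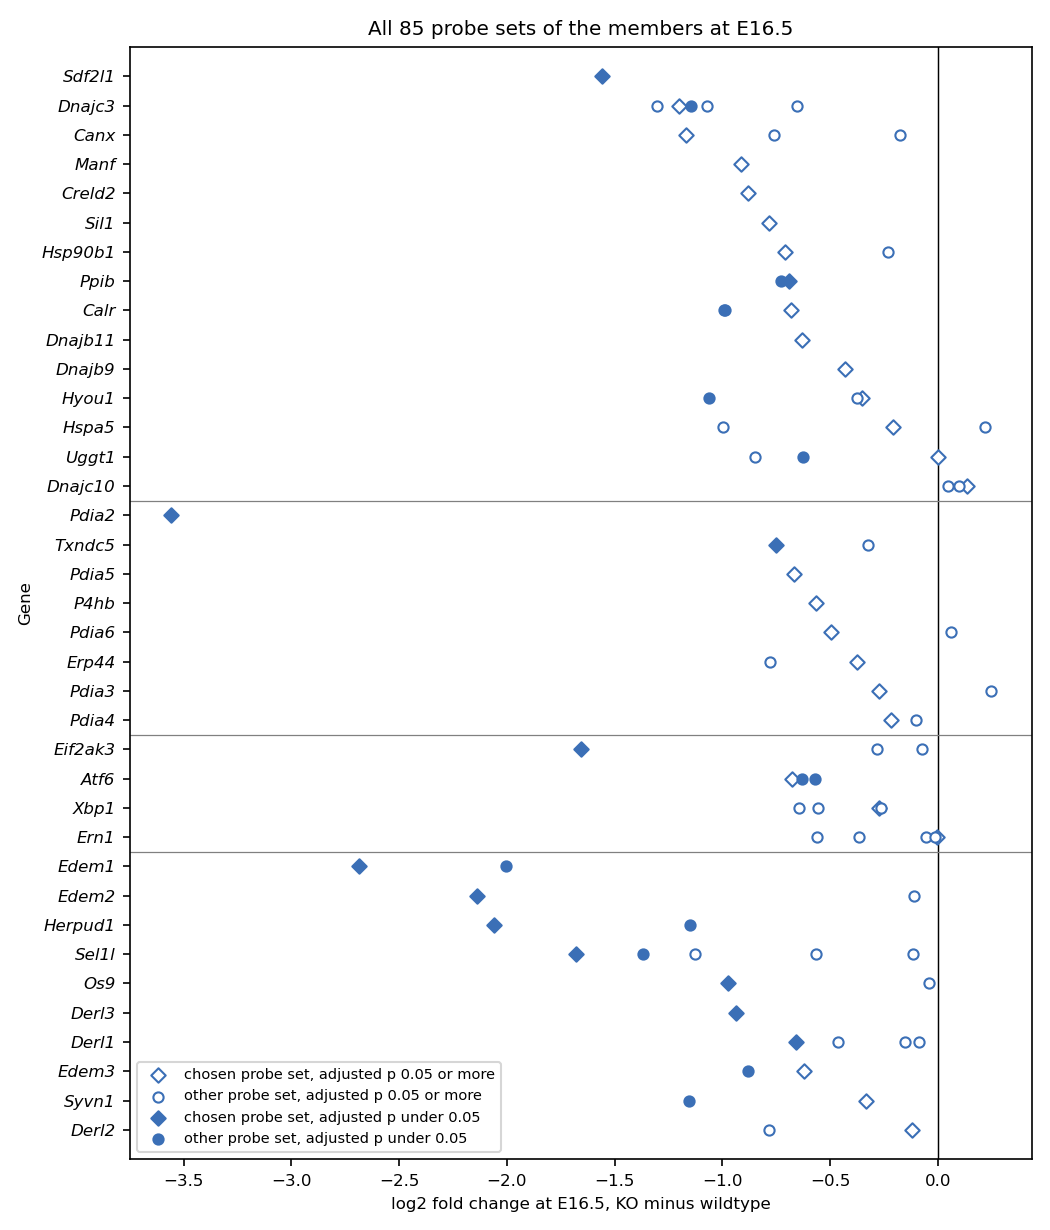
Log2 fold change at E16.5 (KO minus wildtype) on each of the 85 probe sets of the members, with diamonds for the probe set chosen by name, circles for the others and filled symbols where the limma adjusted p was under 0.05. All 24 filled symbols lie below 0, and 7 members have a filled circle with an open diamond.

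The KO effect differed between the days for 4 members, each lower at E16.5 relative to wildtype than at E14.5 (10.8%, against 0.273% of all probe sets called lower in this contrast and 0.0755% called higher, 0.349% in all). The difference of the log2 fold changes was -1.38 for Os9 (standard error 0.16, limma adjusted p = 0.00671), -1.09 for Derl3 (standard error 0.17, limma adjusted p = 0.0268), -1.89 for Sdf2l1 (standard error 0.32, limma adjusted p = 0.0365) and -0.81 for Derl1 (standard error 0.15, limma adjusted p = 0.0477). These are values of the chosen probe sets. On the other Derl1 probe sets the difference was -0.38, 0.079 and -0.32, and on the second Os9 probe set -0.19, none of them past the limit. Hyou1 passed on 1423291_s_at, with a difference of -1.41 (limma adjusted p = 0.0237). Edem2 and Herpud1 had larger differences, of -2.25 and -2.10, and did not pass (limma adjusted p = 0.0529 and 0.0706). In all, 33 members (against 47.7% of all probe sets) had a lower effect at E16.5 than at E14.5, and at an unadjusted p under 0.05 there were 20 lower and 1 higher, against 5.04% and 5.32%. These calls rested on few arrays. That of Os9 ended without WT_522B and without WT_522C, where 0 members passed. Those of the other 3 ended in most cases where 1 array was left out: Derl3 passed without KO_540C, KO_540G, KO_591D or WT_622A, Sdf2l1 without KO_591D or WT_628G, and Derl1 without KO_540G or KO_591D. After quantile normalization 0 members passed. Acinar markers differed between the days in the same direction. Of the 20 measured 7 passed the limit in this contrast, all lower. At E14.5 itself the markers were mixed, 11 of the 20 having a lower KO mean. On the chosen probe sets their median log2 fold change on that day was -0.0549, ranging from -1.5 to 2.18 (Cpb1). In 4 of these markers all 4 KO pancreata lay above wildtype at E14.5, and in 1 all 4 lay below. Cela3b, a pancreatic elastase, was at 0.28 on its chosen probe set and at 2.53, 2.13 and 3.16 on others. On each of those others all 4 KO pancreata lay above wildtype. Over all 34 probe sets of the acinar markers 15 were lower at E14.5, and 0 passed the limit. Cpb1, a pancreatic carboxypeptidase, read 3.81, 5.06, 5.93 and 3.64 in KO at E14.5, against 0.987 and 1.01 in wildtype, and 0.376, 0.114, 0.0901 and 0.259 in KO at E16.5, against 1.29 and 0.708 in wildtype (difference -4.60 ± 0.68, limma adjusted p = 0.0197). The part of these markers in the differences of the ER genes was not tested.

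The 4 KO pancreata of E16.5 were not alike. KO_541J or KO_541L, which share a number, held the lowest KO value in 35 of the 37 members, and KO_591D or KO_591C the highest in 32. The median log2 ratio of the members was -0.545, -0.887, -0.783 and -0.483 in the 4 KO pancreata, against 0.0385 and -0.0395 in wildtype. Markers of acinar cells, the enzyme-secreting cells of the pancreas, were likewise lower in KO_541J and KO_541L than in KO_591D and KO_591C, over a wider range: over the 20 measured of 23 listed, the median log2 ratio was -1.46, -3.15, -3.64 and -1.98 in KO, against 0.16 and -0.18 in wildtype. All 20 were lower in KO at E16.5 and 13 passed the limit. Among these were Ctrl, a chymotrypsin-like protease, at 0.131, 0.0962, 0.0711 and 0.117 in KO, against 1.44 and 0.556 in wildtype (limma adjusted p = 0.000592), and the zymogen granule protein Zg16 at 0.154, 0.111, 0.119 and 0.159 in KO, against 1.40 and 0.599 in wildtype (limma adjusted p = 0.000604). Since the values are ratios, no summed level can be given. At E14.5 KO_540G held the lowest KO value in 24 of the 37 members and KO_615A the highest in 19, with medians of -0.0298, -0.125, 0.153 and -0.059 in KO, against -0.0019 and 0.0019 in wildtype, and the acinar medians were -0.0293, 0.0352, 0.492 and -0.395 in KO, against -0.0438 and 0.0425 in wildtype.

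Markers of other cells moved as well at E16.5. On the chosen probe sets, of 10 mesenchyme markers Lum and Col3a1 rose, of 10 leukocyte markers Csf1r rose, of 8 neuron and glia markers Elavl4 and Nefl rose, and of 8 duct markers Anxa13 and Muc1 fell. None of 14 endocrine, 8 endothelium, 6 plasma cell and B cell, 6 erythroid, 7 liver or 6 skeletal muscle markers passed the limit there. Over all 9 erythroid probe sets 2 passed as higher and 0 as lower. The medians of these lists were 0.608 for mesenchyme, 0.284 for leukocytes, 0.65 for neurons and glia, -0.467 for duct, 0.447 for endocrine cells, 0.14 for endothelium, 0.0747 for plasma and B cells, 0.0964 for erythroid cells, 0.223 for liver and -0.126 for skeletal muscle. The part of these cells in the values of the ER genes was not tested either.

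Genes of neighboring pathways, given for comparison, were lower in KO in part. Of 26 measured genes of ER translocation, signal peptide cleavage and glycosylation, 24 were lower in KO at E16.5 (median log2 fold change -0.567) and 5 fell past the limit. The translocon genes Sec61a1 and Sec63, Tram1, which helps chains into the translocon, Rpn2 of the oligosaccharyltransferase and Ssr3 of the translocon-associated complex had KO means of 0.565 ± 0.0742, 0.373 ± 0.119, 0.454 ± 0.0784, 0.379 ± 0.0824 and 0.612 ± 0.0840 (SD, n = 4; limma adjusted p = 0.0329, 0.0335, 0.0122, 0.0181 and 0.0466). Of 35 further ER folding genes 6 fell, with a median of -0.231: Nucb2, Agr2, Ganab, Prdx4, Ero1a and Ero1b. Ero1b, an oxidase that recharges disulfide isomerases and is abundant in the pancreas, repeated the pattern of Sdf2l1 and Os9. It read 2.03, 1.63, 1.66 and 2.20 in KO, against 1.03 and 0.972 in wildtype at E14.5, and 0.551, 0.344, 0.473 and 0.594 in KO, against 1.24 and 0.757 in wildtype at E16.5, and its effect differed between the days (log2 fold change -1.92 ± 0.33, limma adjusted p = 0.0378).

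In other parts of the stress response the median lay near wildtype at E16.5 and no gene passed on its chosen probe set. None of 17 genes of the integrated stress response passed the limit, with 3 lower and 1 higher at an unadjusted p under 0.05. Their median log2 fold change was -0.06. None of 13 other ER stress transcription factors and proteases passed either (2 lower and 0 higher, median -0.105). The same held for 23 further genes of ER-associated degradation (3 lower and 0 higher, median -0.0536). Over all 37 probe sets of the integrated stress response list 1 passed as lower and 1 as higher. For chaperones outside the ER the medians also lay near 0. The median over 21 cytosolic chaperones was 0.0834, with 4 of the 21 lower, and the co-chaperone Dnajb1 rose to 1.26, 1.49, 1.60 and 1.52 in KO, against 1.08 and 0.917 in wildtype (log2 fold change 0.55 ± 0.12, limma adjusted p = 0.0416). Over 11 mitochondrial chaperones and proteases the median was -0.0904, and none passed (2 lower and 0 higher at an unadjusted p under 0.05). No test compared these lists with the members.

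**Figure D5:**
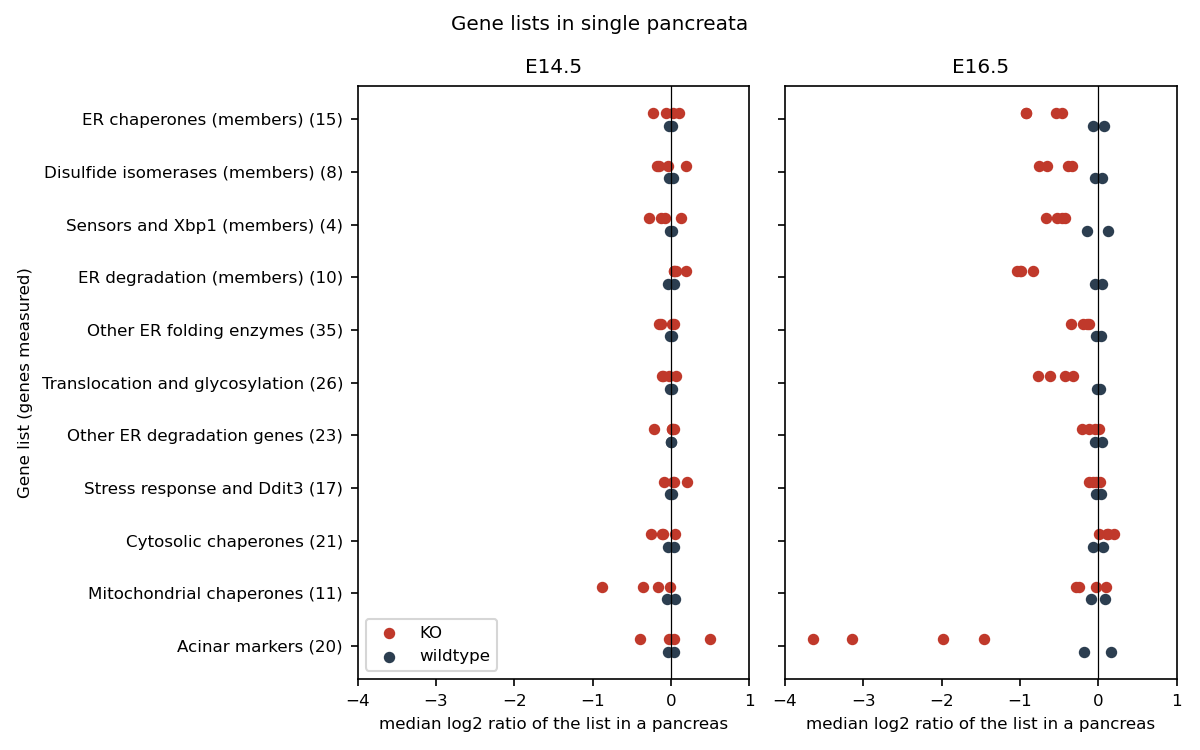
Medians of the log2 ratios of the gene lists, 1 point per list and pancreas, at E14.5 (left) and E16.5 (right), KO in red above wildtype in dark blue, with the number of genes measured in parentheses. At E16.5 the KO medians of the ER member groups lie left of wildtype and those of acinar markers lie farthest left, down to -3.64, while those of cytosolic chaperones lie above 0.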

How the data were processed

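Each of 12 embryonic pancreata was hybridized to its own Affymetrix MOE430 2.0 array. RNA went through 2 rounds of amplification, signals came from RMA in GeneSpring, and the values deposited by the authors are linear ratios, in which each signal is divided by the average of both wildtype signals of its day. On every probe set the wildtype ratios of a day sum to 2 within 3e-07. RMA pulls low signals together and 2 rounds of amplification favor the 3′ end of transcripts, which can shift ratios of probe sets differently. The earlier day is E14.6 in the deposited text and E14.5 in the array names, and E14.5 is used. Of 45101 probe sets 64 controls were set aside. A linear model with 4 group means (8 residual degrees of freedom) was fitted to the log2 ratios of the 12 arrays (limma 3.58.1, R 4.3.3), and two-sided p values were adjusted by Benjamini-Hochberg over 45037 probe sets. The fit was tested on simulated data. A gene is represented by the lowest-numbered probe set with a plain _at ending, else by one with an _a, _f or _g ending, and by an _s or _x ending only where no other exists.

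Members and gene lists were chosen with earlier results of these data known. Members are given pancreas by pancreas if any probe set passed 0.05 in either day or the difference, if among the 5 largest changes of a day, if a sensor or Xbp1, or if probe sets differed in sign by over 1. Of other lists, genes past the limit are named, at most 6 per list by smallest p. Of the acinar markers only Ctrl and Zg16 are, with Cpb1 and Cela3b, which were chosen after their values were seen. Alternatives were other variance models, arrays, normalizations, centring, weights, a random block (statmod 1.5.0), log2(ratio + 0.1), probe set choices, the methods' t-test and leaving out each array. The t-test was run on all probe sets, without the fold change filters that came before it in the study. Promoter windows and gene names come from RefSeq tables of GRCm38.p6. Windows of Sil1, Atf6, Manf, Derl1 and Hyou1 were not used here, and a planned search of protein ends was not run. Plotting used Python 3.11.15 and matplotlib 3.10.9.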

Additional observations from a re-analysis of the deposited data

Results flagged for a closer look

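In 4 of 74 groups of 4 KO pancreata examined, 1 per member and day, a single pancreas stood apart from the other 3 by Dixon's gap ratio, where 3.7 groups are expected by chance at 1 in 20. Hyou1 read 1.03 in KO_591D at E16.5, with the other KO pancreata at 0.69, 0.724 and 0.727 (gap ratio 0.869). Txndc5 read 0.453 in KO_541L at E16.5, with the others at 0.632, 0.654 and 0.658 (gap ratio 0.893). Herpud1 read 0.749 in KO_540G at E14.5, with the others at 1.11, 1.12 and 1.2 (gap ratio 0.838). Edem1 read 1.59 in KO_615A at E14.5, with the others at 0.615, 0.704 and 0.712 (gap ratio 0.846).

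On the chosen probe sets the KO effect at E16.5 differed from that at E14.5, by limma's test of the difference, for Sdf2l1 (-1.89), Derl3 (-1.09), Os9 (-1.38) and Derl1 (-0.805), all in log2. For Pdia2 the difference of -4.80 did not pass that test, but all 4 KO pancreata lay above both wildtype pancreata at E14.5 and below both at E16.5.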

How the results depend on the processing

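The median log2 fold change of the members kept its sign at E16.5, from -0.801 to -0.592 with 1 array left out and from -0.781 to -0.489 under the other alternatives, while at E14.5 it took both signs (-0.045 to 0.0179 and -0.124 to 0.00944). At E16.5, where 12 members passed, 4 passed with a trended and robust variance, 1 with the day fitted on its own 6 arrays and 4 after quantile normalization. The methods' t-test on all probe sets gave 0 after Benjamini-Hochberg and 20 without correction. With the probe set of smallest p for each gene 19 passed, and with 1 array left out 5 to 17. At E14.5, where 0 members passed, 4 passed by the methods' t-test without correction. The share of all probe sets called by that uncorrected test was counted on neither day. In the difference of the days, where 4 passed, 1 passed with a trended and robust variance, 0 after quantile normalization, 9 with array weights, and 0 to 8 with 1 array left out. The causes were not tested, other than that a fit on 6 arrays has fewer samples. The random block on the number in the array names gave 13 members at E16.5, with a correlation of -0.0876, and cannot tell whether litters bear on the calls. No paired analysis was possible because the labels number no replicates across KO and wildtype.

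Signs turned for 12 members at E14.5, all of them not past the limit. Quantile normalization gave 0.00944 for Hspa5, 0.0137 for Ppib and 0.0346 for Pdia6. Array weights gave 0.00577 for Hspa5, 0.0375 for Ppib, -0.0269 for Pdia4 and 0.00248 for Pdia6. The probe set of smallest p gave 0.0531 for Hspa5, 0.225 for Ppib, -0.124 for Atf6, -0.231 for Derl2 and -0.174 for Edem2, and the mean over probe sets gave 0.0107 for Hspa5, 0.106 for Ppib, -0.0143 for Atf6, -0.0772 for Derl2 and -0.0296 for Edem2. With 1 array left out the ranges were -0.136 to 0.00649 for Ern1, -0.0308 to 0.196 for Herpud1, -0.0355 to 0.0179 for Hspa5, -0.256 to 0.0194 for Sil1, -0.36 to 0.0171 for Dnajc3, -0.051 to 0.0551 for Ppib, -0.19 to 0.22 for Pdia3, -0.0306 to 0.0795 for Pdia4, -0.166 to 0.0351 for Pdia6 and -0.032 to 0.261 for Edem2. At E16.5 Uggt1 took -0.00107 after quantile normalization, -0.0123 after median centring, -0.0775 with array weights, -0.624 with the probe set of smallest p and -0.49 as a mean over probe sets, and Pdia3 took 0.247 with the probe set of smallest p. With 1 array left out the ranges at E16.5 were -0.116 to 0.0686 for Uggt1, -0.071 to 0.0729 for Ern1 and -0.741 to 0.197 for Xbp1.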
